A study of Homo sapiens with 6 samples.

Results

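NF-kB is a family of dimeric transcription factors that drives inflammatory genes in macrophages. Here 10 of its genes, 5 subunits and 5 inhibitors, were followed in THP-1, a leukemia line of human monocytic cells. They were chosen by name as rows of the deposited count table, in which all 10 were found among 61267 genes. Of the 6 libraries, 3 were labelled KD and 3 were labelled NC, with neither a target nor a construct given for either. METTL1, a methyltransferase that adds 7-methylguanosine to tRNA and other RNA, is named in the title of the series. All cells had first been made adherent, over 48 h, with 100 ng/ml of PMA, a phorbol ester. Nothing states that the 3 libraries of each group were grown as separate cultures, so each p-value reflects the spread of these libraries alone, which may be technical.

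In resting cells NF-kB dimers are held in the cytoplasm by inhibitors of the IkB family. Signals from Toll-like, interleukin 1 and TNF receptors activate the IKK kinases, which mark the IkB proteins for destruction and free the dimers to enter the nucleus. Several NF-kB genes are themselves NF-kB targets, so that the pathway rebuilds its own inhibitors, and PMA is known to activate it through protein kinase C.

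Total counts ran from 41547814 to 42608884 in KD and from 37628972 to 42970216 in NC. METTL1 did not pass the test, with 13.7 ± 0.605 CPM in KD and 14.8 ± 1.01 CPM in NC (CPM, counts scaled to the library, mean ± SD, n = 3 each, log2 fold change -0.10, SE 0.0765, edgeR adjusted p = 0.216), and passed as lower with library sizes alone (-0.29, edgeR adjusted p = 0.00249). The names KD and NC are therefore those of the labels only. The libraries also differed in markers of other cells. A list of 18 neural and embryonic-type genes, picked from genes already known to differ in these libraries, summed to 18.4 to 19.8 CPM in KD and 3186 to 3538 CPM in NC (sums in this paragraph are CPM by library size). Of the 17 tested, 16 were lower in KD and PCDHB5, a protocadherin gene, was higher on both scales (0.813 CPM in KD and 0.121 CPM in NC). In the KD libraries 7 of the 18 had no count, among them LIN28B, PAX3 and POU3F3, and NEFM made up much of the NC sum (0.390 CPM in KD and 1595 CPM in NC). PCDHB5 and NEFM were named after their values were seen. The 3 genes of a chromosome 9 segment known to be lost in THP-1 cells, CDKN2A, CDKN2B and MTAP, summed to 0.337 to 0.516 CPM in KD and 67.5 to 74.1 CPM in NC. Macrophage markers were present in both groups, with all 13 tested of 14 higher in KD on the scale of all genes, while the leukocyte scale described below gave 1 higher and 6 lower. An example is CSF1R at 280 ± 7.41 CPM in KD and 134 ± 1.11 CPM in NC. CSF1R, SPI1 and TYROBP are also among the genes that set the leukocyte scale, so that scale is no independent measure of them. The 7 T and B cell markers summed to 1.68 to 2.60 CPM in KD and 5.10 to 5.32 CPM in NC. Of these, 2 had no count in any KD library (CD3D and CD3E) and 3 had none in any NC library (CD3E, CD2 and MS4A1). The part of these differences in the results below was not tested, and in bulk RNA fewer cells of a type and less RNA per cell cannot be told apart. Each change is therefore given on the scale of all tested genes (TMM normalization) and on a leukocyte scale. On the latter, 58 genes restricted to blood cells are held level as a set, not gene by gene. These 58 genes had a median log2 fold change of 1.20 on the scale of all genes (quartiles 1.03 and 1.41), and 57 of them were higher in KD there. On the leukocyte scale their median was 0.0028, from -1.07 to 0.58, with 22 higher, 16 lower and 20 not passing.

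All 10 NF-kB genes were higher in KD on the scale of all genes (edgeR quasi-likelihood test, adjusted p under 0.05), but on the leukocyte scale 6 were lower, none was higher and 4 did not pass. The background is wide: 36.2% of the 21905 tested genes were called higher on the scale of all genes, and 50.2% of the 8313 protein-coding genes with a mean of at least 10 CPM. Every KD library lay above every NC library for all 10 genes, against 36.7% of the tested genes. The median log2 fold change of the 10 was 0.89, beside -0.046 for all tested genes and 0.13 for the abundant protein-coding ones. On the leukocyte scale the median of the 10 was -0.32, beside -1.25 for all tested genes, of which 83.3% were lower and 3.48% higher. Of the abundant protein-coding genes 90.2% were lower there.

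The 10 genes formed 2 ranges of change. REL, NFKBIA, NFKBIE, NFKBIZ and TNFAIP3 were at least 2-fold higher in KD on the scale of all genes, with log2 fold changes of 1.09 to 1.30, and 12.6% of tested genes were called and at least 2-fold higher. NFKB1, NFKB2, RELA, RELB and NFKBIB lay between 0.29 and 0.68. No gene fell between 0.68 and 1.09. Of the 58 leukocyte genes, 23 to 37 had a larger log2 fold change than the genes of the upper range, and 53 to 57 had a larger one than those of the lower range. On the leukocyte scale the upper range therefore lay at -0.11 to 0.096 and the lower range at -0.91 to -0.52.

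**Figure D1:**
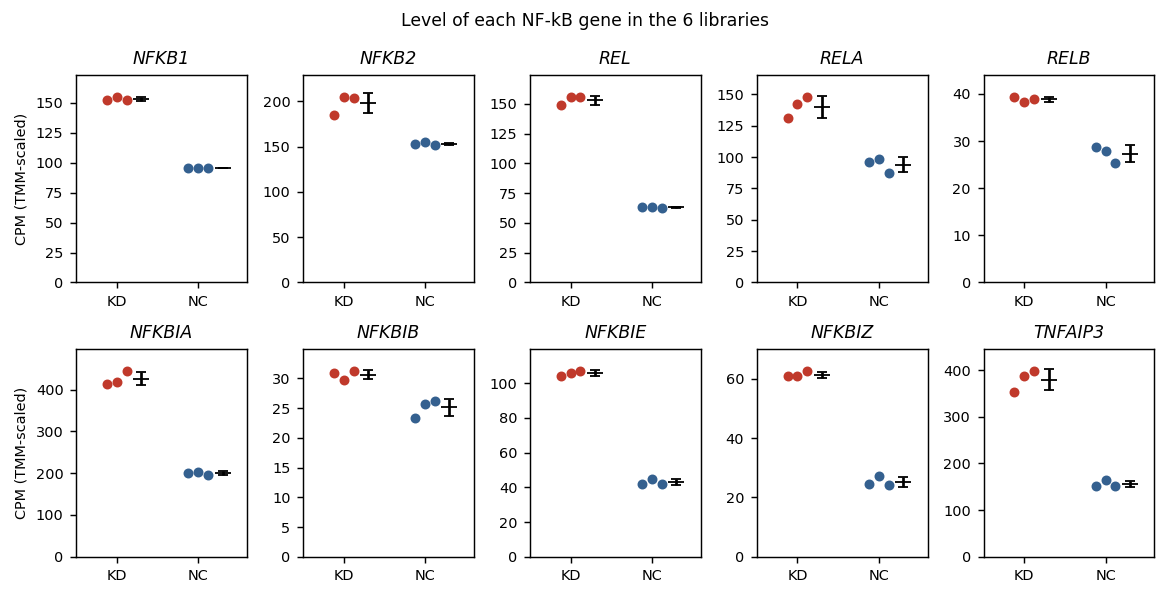
TMM-scaled CPM of each NF-kB gene in the 3 KD libraries (red, left) and the 3 NC libraries (blue, right), with the mean and SD beside the points. The KD points lie above the NC points in every panel, with a 2.46-fold difference for NFKBIE and a 1.22-fold difference for NFKBIB.

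Among the subunits, REL changed most. REL encodes c-Rel, a transactivating subunit found mainly in blood cells (chromosome 2, 60881491 to 60931612, plus strand, GRCh38). Its level was 149, 156 and 156 CPM in the KD libraries and 63.4, 63.2 and 62.7 CPM in the NC libraries. The KD values were all more than double the NC values, and REL rose by a log2 fold change of 1.28 with an SE of 0.0407 (edgeR adjusted p = 2.67e-19). Held to the leukocyte genes it was at 98.2, 104 and 102 CPM in KD and 96.7, 94.4 and 95.9 CPM in NC, a log2 fold change of 0.080 that did not pass (edgeR adjusted p = 0.0932). Of the 17129 exon bases of REL, 5702 (33.3%) are shared on the same strand with ENSG00000267520, for which the table gave 60.1 CPM in KD and 30.5 CPM in NC by library size. Reads there cannot be assigned to 1 gene.

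RELA encodes p65, the transactivating partner in the most common NF-kB dimer (chromosome 11, 65653599 to 65663090, minus strand). It was at 131, 142 and 148 CPM in KD and 95.8, 98.8 and 87.0 CPM in NC, and rose by 0.58 on the log2 scale (SE 0.0497, edgeR adjusted p = 1.52e-10). NFKB1 encodes p105, which is processed to the DNA-binding subunit p50 (chromosome 4, 102501330 to 102617302, plus strand). Its 152, 155 and 152 CPM in KD and 95.8, 95.6 and 95.5 CPM in NC were the least variable values of the 10 genes within each group, and it rose by 0.68 with an SE of 0.0389 (edgeR adjusted p = 3.68e-14). Both genes turned to lower in KD on the leukocyte scale, RELA at -0.62 and NFKB1 at -0.52 (edgeR adjusted p = 5.27e-11 and 5.44e-11).

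RELB and NFKB2 encode RelB and p100, the partners of the non-canonical arm, in which p100 is cut to p52. NFKB2 (chromosome 10, 102394110 to 102402524, plus strand) was at 185, 205 and 204 CPM in KD and 153, 155 and 152 CPM in NC. RELB (chromosome 19, 45001461 to 45038192, plus strand) was at 39.4, 38.4 and 38.9 CPM in KD and 28.8, 27.9 and 25.3 CPM in NC. The groups did not overlap for either gene. NFKB2 rose by 0.37 with an SE of 0.0429 and RELB by 0.51 with an SE of 0.0561 on the scale of all genes (edgeR adjusted p = 2.79e-08 and 1.04e-08). On the leukocyte scale NFKB2 was at -0.83 and RELB at -0.69 (edgeR adjusted p = 4.04e-14 and 4.48e-11), so that both were lower in KD there.

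The inhibitors divided in the same way. NFKBIA encodes IkB-alpha, the rapidly resynthesised inhibitor that ends a pulse of NF-kB activity (chromosome 14, 35401079 to 35404749, minus strand). It stood at 414, 419 and 444 CPM in KD and 201, 203 and 195 CPM in NC, and rose by 1.09 with an SE of 0.0421 (edgeR adjusted p = 1.18e-17). It was lower in KD by a small amount on the leukocyte scale, at -0.11 (edgeR adjusted p = 0.0314). That call was lost without NC replicate 1, KD replicate 1 or KD replicate 2, where the edgeR adjusted p was 0.108, 0.0743 and 0.107.

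NFKBIE encodes IkB-epsilon, a slower inhibitor that is also induced by NF-kB (chromosome 6, 44258166 to 44265788, minus strand). Its 104, 106 and 107 CPM in KD lay far above the 42.1, 45.1 and 41.9 CPM in NC, a log2 fold change of 1.30 with an SE of 0.0441 (edgeR adjusted p = 1.00e-18). NFKBIZ encodes the nuclear protein IkB-zeta, which helps p50 dimers switch on secondary response genes (chromosome 3, 101827991 to 101861022, plus strand). It was at 60.8, 60.8 and 62.6 CPM in KD and 24.4, 27.1 and 24.2 CPM in NC, a log2 fold change of 1.28 with an SE of 0.0519 (edgeR adjusted p = 3.17e-17). TNFAIP3 encodes A20, a ubiquitin-editing enzyme that shuts down signalling upstream of IKK (chromosome 6, 137867214 to 137883314, plus strand). It was at 354, 387 and 398 CPM in KD and 152, 164 and 152 CPM in NC, a log2 fold change of 1.28 with an SE of 0.0470 (edgeR adjusted p = 4.45e-18). None of the 3 passed on the leukocyte scale, with log2 fold changes of 0.096, 0.083 and 0.081 and edgeR adjusted p of 0.0540, 0.140 and 0.129. The libraries of the 2 groups overlapped there for NFKBIZ and TNFAIP3 but not for the other 8 genes, and 87.5% of tested genes did not overlap. Without NC replicate 2 the 3 genes passed as higher on that scale, at 0.12, 0.12 and 0.11 (edgeR adjusted p = 0.0249, 0.0418 and 0.0455).

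NFKBIB encodes IkB-beta, an inhibitor that is not under strong NF-kB control (chromosome 19, 38899700 to 38908893, plus strand). It was at 30.9, 29.7 and 31.2 CPM in KD and 23.4, 25.7 and 26.1 CPM in NC. The groups stood close without overlapping, and the log2 fold change of 0.29 with an SE of 0.0586 (edgeR adjusted p = 1.02e-04) was the smallest of the 10. With library sizes alone it was 0.10 and did not pass (edgeR adjusted p = 0.153), while the other 9 genes stayed higher, beside 28.4% of all tested genes. NFKBIB was the lowest of the 10 on the leukocyte scale, at -0.91 (edgeR adjusted p = 3.79e-13). Exons shared with neighbours were short for NFKBIB (40 bases with SIRT2), RELA (103 bases with RELA-DT), NFKBIZ (194 bases with NXPE3) and TNFAIP3 (95 bases with WAKMAR2), and absent for the 5 remaining genes other than REL. SIRT2, RELA-DT and WAKMAR2 lie on the opposite strand, and whether counting used strand is not stated in the sources used here.

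**Figure D2:**
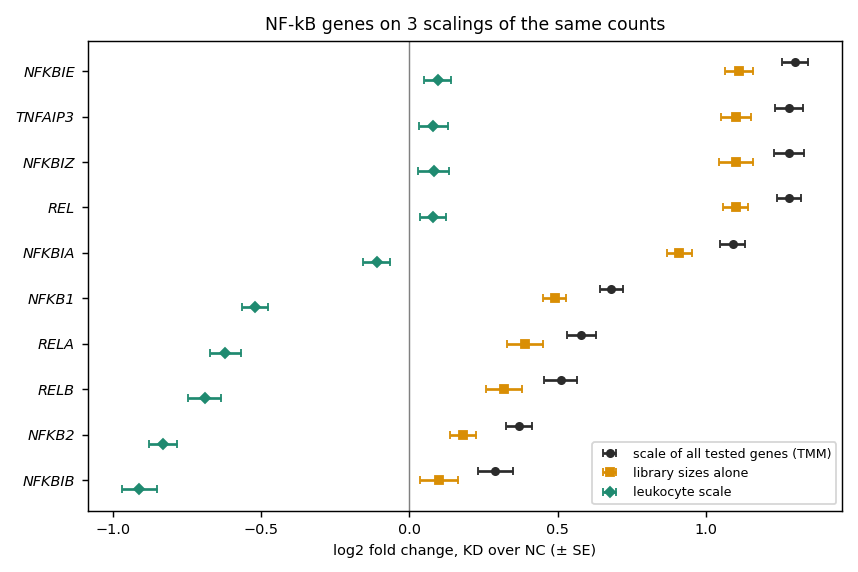
Log2 fold change, KD over NC, of the 10 NF-kB genes with SE bars (n = 3 libraries per group) on the scale of all tested genes (circles), with library sizes alone (squares) and on the leukocyte scale (diamonds). The scaling moves all points together, and the gap between NFKBIA and NFKB1 (1.09 and 0.68 on the scale of all genes) separates the 2 ranges on each scale.

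Comparisons within a library need no scaling between libraries. They are not free of the marker differences between the groups given above, whose part was not tested. They use the same counts as the changes above and are no separate support for them. The share of each subunit was taken from counts per exon base, summed to 100% over the 5 subunits. REL made up 9.79%, 9.64% and 9.52% of subunit transcripts in KD and 5.74%, 5.69% and 5.97% in NC. NFKB2 made up 37.4%, 38.8% and 38.3% in KD and 42.6%, 42.7% and 44.4% in NC. For both genes, and for NFKB1 with 10.5% ± 0.380 in KD and 9.60% ± 0.279 in NC (mean ± SD, n = 3 each), the groups did not overlap, and the two-sided exact permutation test gave p = 0.10, the smallest value that 3 against 3 allows (0.17 adjusted over the 5 shares). RELA took 27.7% ± 0.686 in KD and 27.0% ± 0.979 in NC, and RELB 14.0% ± 0.716 in KD and 14.3% ± 0.584 in NC. The shares of RELA and RELB overlapped between the groups (exact permutation p = 0.50 for each, n = 3 each). How often shares within other sets of genes would not overlap was not counted. The exon lengths of the table merge all transcripts, 15679 bases for NFKB1 against 4085 in its GENCODE principal transcript, so the shares depend on the length used. Without length scaling the NFKB1 shares overlapped (exact permutation p = 0.60). With GENCODE lengths NFKB1 took 20.4% in KD and 18.7% in NC, and REL 7.42% in KD and 4.48% in NC.

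Set against RELA in the same library, 4 of the 5 inhibitors were higher in KD and NFKBIB was lower. NFKBIA transcripts stood at 4.88 per RELA transcript in KD and 3.42 in NC, TNFAIP3 at 2.29 in KD and 1.41 in NC, and NFKBIE at 1.59 in KD and 0.969 in NC (geometric means of length-scaled levels). NFKBIZ stood at 0.405 per RELA transcript in KD and 0.248 in NC, and NFKBIB at 0.513 in KD and 0.627 in NC. In log2 the differences, KD minus NC, were 0.718 for NFKBIE, 0.706 for NFKBIZ, 0.702 for TNFAIP3, 0.512 for NFKBIA and -0.291 for NFKBIB. Each is close to the log2 fold change of the gene given above less that of RELA, so the ratios restate those changes. The groups did not overlap for any of the 5 ratios, each with an exact permutation p = 0.10, also after adjustment over the 5. With 3 against 3 the test cannot go below that value. How many other genes would also not overlap when set against RELA was not counted. On the leukocyte scale 87.5% of tested genes did not overlap, so a lack of overlap is common in these libraries.

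**Figure D3:**
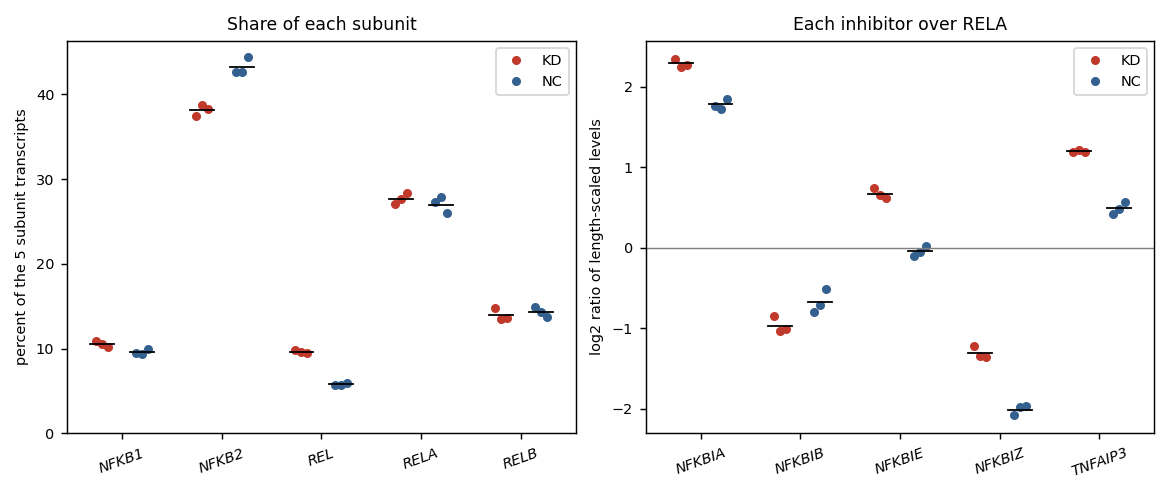
Left, the share of each subunit among the 5 subunit transcripts per library, in percent. Right, the log2 ratio of each inhibitor to RELA per library. Points are the 3 KD libraries (red, left) and the 3 NC libraries (blue, right), and lines are means. REL stands at 9.65% in KD and 5.80% in NC, and NFKBIB is the only inhibitor whose ratio is lower in KD.

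Levels per length (TPM, counts per exon base of the table scaled to a common total) put NFKBIA first in both groups, at 343 ± 15.6 TPM in KD and 171 ± 5.57 TPM in NC (mean ± SD, n = 3 each). In KD it was followed by TNFAIP3 (161 TPM), NFKBIE (112), NFKB2 (96.8), RELA (70.2), NFKBIB (36.0), RELB (35.4), NFKBIZ (28.4), NFKB1 (26.7) and REL (24.5). Only NFKBIB and RELB overlapped among neighbours in that order. In NC the order was NFKB2 (79.9 TPM), TNFAIP3 (70.5), RELA (50.1), NFKBIE (48.5), NFKBIB (31.4), RELB (26.5), NFKB1 (17.8), NFKBIZ (12.4) and REL (10.7), with overlap only between RELA and NFKBIE. TNFAIP3 and NFKBIE thus stood above NFKB2 in KD, while NFKB2 stood above both in NC. Both orders rest on the merged exon lengths of the table. With GENCODE lengths NFKB1 stood above RELB among the subunits, with 20.4% for NFKB1 and 9.23% for RELB in KD, and 18.7% for NFKB1 and 9.51% for RELB in NC. The inhibitors were not rescaled to those lengths.

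Promoters were compared because several NF-kB genes carry sites for NF-kB itself. RefSeq promoter windows (GRCh38.p14, 250 bases before to 50 after the gene start) were held for 8 of the 10 genes, without RELB and NFKBIE. Both strands were searched for the 10-base kappaB consensus, which was found in 5 of the 8 windows. It was also found in 11.3% of all 35116 promoters and in 12.9% of those of tested genes. Of the 32 target genes with a window, 37.5% had it. Shown here are 3 windows with a match, from genes of the upper range, and that of NFKBIB, which changed least and has none. Each is written 5' to 3' on the gene's strand, and capitals mark the matches.
NFKBIA (chr14:35404700-35404999, minus strand): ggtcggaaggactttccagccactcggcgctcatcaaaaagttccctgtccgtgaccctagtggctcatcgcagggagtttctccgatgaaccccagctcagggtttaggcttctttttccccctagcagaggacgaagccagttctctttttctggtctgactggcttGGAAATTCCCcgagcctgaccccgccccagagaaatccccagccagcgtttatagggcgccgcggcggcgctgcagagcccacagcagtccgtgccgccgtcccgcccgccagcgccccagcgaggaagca
TNFAIP3 (chr6:137867009-137867308, plus strand): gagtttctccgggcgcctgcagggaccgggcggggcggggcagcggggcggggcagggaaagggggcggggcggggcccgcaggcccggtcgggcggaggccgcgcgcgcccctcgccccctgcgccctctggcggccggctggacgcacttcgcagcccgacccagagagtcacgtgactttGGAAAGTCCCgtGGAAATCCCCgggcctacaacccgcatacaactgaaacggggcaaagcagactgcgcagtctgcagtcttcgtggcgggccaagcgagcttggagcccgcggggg
REL (chr2:60881324-60881623, plus strand): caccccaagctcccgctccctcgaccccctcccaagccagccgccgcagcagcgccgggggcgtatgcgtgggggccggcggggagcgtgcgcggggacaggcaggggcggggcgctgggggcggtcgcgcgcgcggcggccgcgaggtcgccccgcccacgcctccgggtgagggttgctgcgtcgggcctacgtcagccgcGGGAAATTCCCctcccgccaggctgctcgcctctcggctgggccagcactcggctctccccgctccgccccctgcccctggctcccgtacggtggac
NFKBIB (chr19:38899416-38899715, plus strand): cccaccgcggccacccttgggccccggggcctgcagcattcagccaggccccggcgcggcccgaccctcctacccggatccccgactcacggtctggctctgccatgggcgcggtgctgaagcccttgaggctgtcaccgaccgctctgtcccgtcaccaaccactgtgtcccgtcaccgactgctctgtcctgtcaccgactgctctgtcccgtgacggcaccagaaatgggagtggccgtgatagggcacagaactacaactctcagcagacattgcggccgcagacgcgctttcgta

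NFKBIA has 1 match, whose first base lies 81 bases before the start, and TNFAIP3 has 2, at 67 and 55 bases before it. In REL a match on each strand overlaps at 47 and 46 bases before the start. The 2 further genes with a match have the same 10 letters on the gene strand, GGGAATTTCC, at 49 bases before the start in NFKB1 and at 223 bases before it in NFKBIZ. The 5 genes with a match had log2 fold changes of 0.68 to 1.28 on the scale of all genes, and the 3 without one, NFKB2, RELA and NFKBIB, had 0.29 to 0.58. NFKBIE (1.30) and RELB (0.51) had no window and so are in neither group. The RefSeq start of RELA lies 767 bases upstream of the start in the deposited table, further than the 83 bases or less between the 2 starts of the other 7 genes. A match is a run of letters and was not shown to be bound. Outside the 10 genes a match went with no such difference: the median log2 fold change was -0.068 for 1694 tested genes with a kappaB match and -0.055 for 11486 without, of which 38.5% with and 37.7% without were higher in KD.

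**Figure D4:**
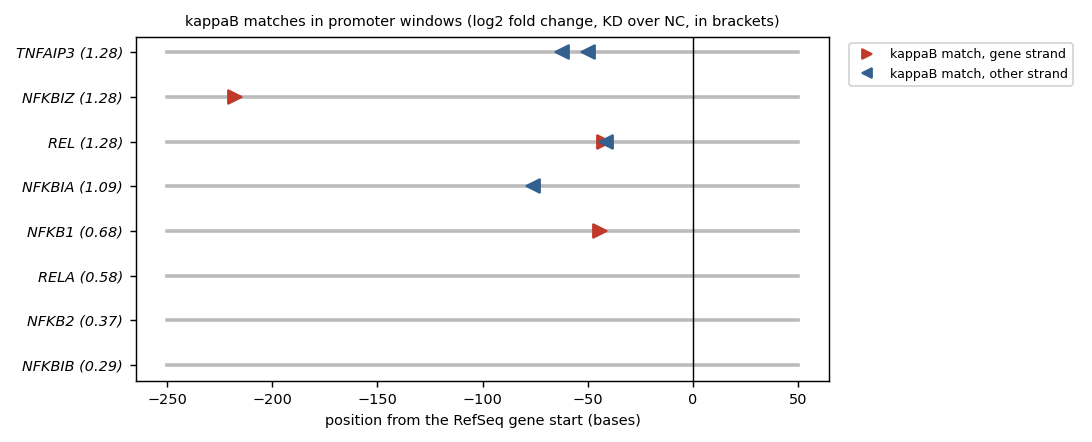
Positions of kappaB matches in the promoter windows of 8 NF-kB genes, in bases from the RefSeq gene start, on the gene strand (red) and the other strand (blue). Genes are ordered by log2 fold change, KD over NC, on the scale of all genes, and the 3 at the bottom, RELA, NFKB2 and NFKBIB, have no match.

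The kinases that act on the IkB proteins were next. Of 8 genes of the IKK and TBK1 complexes, 7 were higher and 1 was lower in KD on the scale of all genes, but 7 were lower and none higher on the leukocyte scale. Their median log2 fold change was 0.66, and 40.3% of all tested genes were lower on the scale of all genes. IKBKG, the scaffold NEMO, stood at 90.1 ± 2.22 CPM in KD and 51.6 ± 1.27 CPM in NC (0.80 ± 0.0429, where log2 fold change ± SE, KD over NC, on the scale of all genes, is given for this and the further lists). IKBKG has a near-identical pseudogene copy, and how reads were divided between them is not known. The catalytic kinases parted, with IKBKB, the main kinase of the canonical arm, higher (0.42 ± 0.0443) and CHUK, or IKK-alpha, the kinase of the non-canonical arm, lower (-0.16 ± 0.0453, 46.6 CPM in KD and 52.1 CPM in NC). The related kinases IKBKE (1.04 ± 0.0457) and TBK1 (0.79 ± 0.0430) rose, as did their adaptors TANK (1.15 ± 0.0403), TBKBP1 (0.54 ± 0.0629) and AZI2 (0.23 ± 0.0503). AZI2 did not pass with library sizes alone (0.045, edgeR adjusted p = 0.425).

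The 7 other IkB-related genes were divided, with 3 higher, 2 lower and 2 not passing on the scale of all genes, and all 7 lower on the leukocyte scale. BCL3, a nuclear IkB protein (0.54 ± 0.106), NFKBID, which encodes another one (0.72 ± 0.135), and NKIRAS2, a Ras-like protein that binds IkB (0.30 ± 0.0404), were higher. NKAP (-1.51 ± 0.0590, 40.3 CPM in KD and 115 CPM in NC) and the repressor NKRF (-0.94 ± 0.0548, 22.7 CPM in KD and 43.7 CPM in NC) were lower. The leukocyte scale moves every gene down, so both were lower there too, as were 83.3% of tested genes. NKIRAS1 (0.098 ± 0.0534) and NFKBIL1 (-0.10 ± 0.101) did not pass.

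In the non-canonical arm, which frees RelB dimers through p100 processing, 7 of 9 genes were higher and 1 lower on the scale of all genes, while the leukocyte scale gave 1 higher and 7 lower. BIRC3, or cIAP2, a ubiquitin ligase that with TRAF3 keeps the kinase NIK low, rose on both scales (1.52 ± 0.0434, and 0.32 on the leukocyte scale, edgeR adjusted p = 1.32e-06). TRAF3 (0.81 ± 0.0402), BIRC2 (0.52 ± 0.0541), the NIK gene MAP3K14 (0.47 ± 0.0884) and the receptors LTBR (1.18 ± 0.0561), CD40 (0.88 ± 0.0640) and TNFRSF12A (0.20 ± 0.0690) passed as higher on the scale of all genes but not on the other. TNFRSF12A did not pass with library sizes alone (0.016, edgeR adjusted p = 0.858), without NC replicate 3 (edgeR adjusted p = 0.0618) or without KD replicate 2 (edgeR adjusted p = 0.0719). TNFRSF11A (0.11 ± 0.119) did not pass, and the BAFF receptor gene TNFRSF13C was at 0.0678 CPM in KD and 1.97 CPM in NC.

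Receptors came next. All 11 receptor genes rose on the scale of all genes, with a median of 1.34, while the leukocyte scale left 4 higher and 3 lower. TLR2, which senses bacterial lipoproteins (1.52 ± 0.0539), its partner TLR1 (1.37 ± 0.0743) and the TNF receptor TNFRSF1B (1.41 ± 0.0573) were higher on both scales, while IL1R1 (1.19 ± 0.0470) was at -0.0084 when held to the leukocyte genes and did not pass. Of 13 ubiquitin-editing genes 12 were higher and none lower, while 2 were higher and 10 lower when held to the leukocyte genes. TNIP1, which binds A20, stood at 1156 ± 42.0 CPM in KD and 434 ± 15.4 CPM in NC (1.42 ± 0.0449), and ZC3H12A, an RNase that degrades inflammatory mRNA, rose by 1.47 ± 0.0555. These 2 were also the genes higher on the leukocyte scale. TNIP2 (1.07 ± 0.0397) and the linear-ubiquitin protease OTULIN (0.76 ± 0.0441) were higher with all genes as the scale and lower with the leukocyte genes. The 21 canonical adaptors were mixed, with 13 higher and 5 lower on the scale of all genes, and with 2 higher and 16 lower once held to the leukocyte genes. Those 2 were the kinase IRAK2 (1.35 ± 0.0505) and TAB2, which links TAK1 to ubiquitin chains (1.34 ± 0.0397). The inhibitory kinase IRAK3 (1.20 ± 0.0512) and the adaptor CARD9 (1.29 ± 0.0583) did not pass on the leukocyte scale, at 0.0021 and 0.085. The 5 lower on the scale of all genes were named after their values were seen. They were TRAF5 (-4.40 ± 0.205, 0.305 CPM in KD and 6.48 CPM in NC), BTRC (-0.97 ± 0.0573), TAB1 (-0.54 ± 0.0697), CUL1 (-0.48 ± 0.0406) and IRAK4 (-0.22 ± 0.0808).

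Among 37 NF-kB target genes, a list that repeats BIRC3, TNIP1, ZC3H12A, CYLD, BCL3 and NFKBID from the lists above, 35 were higher and 2 lower on the scale of all genes, and the leukocyte scale gave 22 higher and 10 lower. Their median was 1.49, above the 0.89 of the 10 NF-kB genes, and 0.28 on the leukocyte scale. IL23A, a subunit of interleukin 23 (3.23 ± 0.0530), the survival gene BCL2A1 (1.62 ± 0.0418), TNFAIP2 (1.70 ± 0.0438) and TNFAIP8 (1.55 ± 0.0416) were higher on both scales. The 2 lower targets, named after their values were seen, were the chemokines CXCL10 (-1.35 ± 0.155) and CCL5 (-0.39 ± 0.0413). The target list, like the others, was chosen with earlier results of these data known, so its median is no separate support. No difference between lists was tested.

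**Figure D5:**
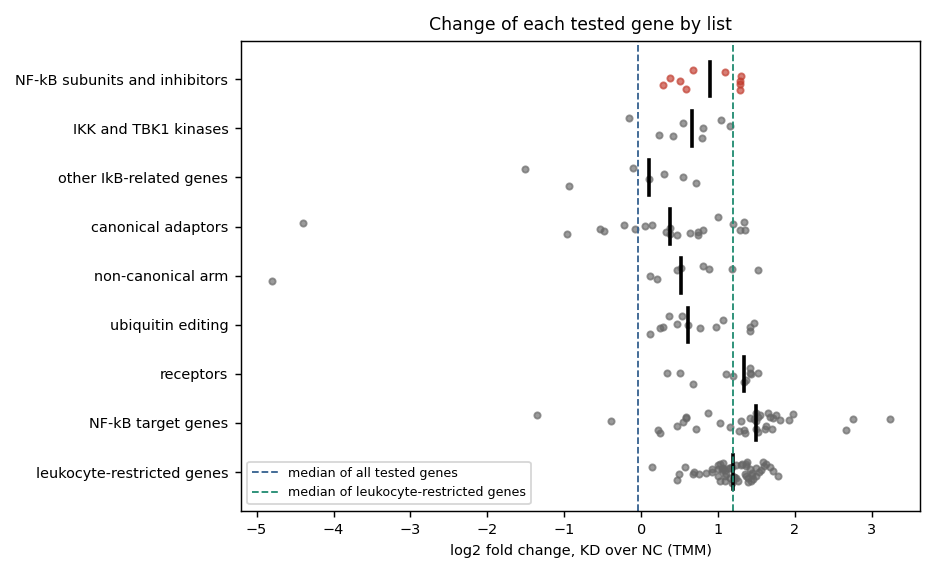
Log2 fold change, KD over NC, on the scale of all genes for each tested gene of the NF-kB lists and the leukocyte list, with black bars for the median of each list. The NF-kB genes (red, median 0.89) lie above the median of all tested genes (-0.046, dashed blue), 6 of them below that of the leukocyte genes (1.20, dashed green), while the target genes have a median of 1.49.

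The protein-coding genes whose profiles over the 6 libraries lay closest to each NF-kB gene were found among 8303 with a mean of at least 10 CPM, by the Euclidean distance between centred log2 CPM values. The nearest were PPARD for REL (distance 0.0372), MRPL52 for RELA (0.0517), VCP for NFKB1 (0.0281), EPN1 for NFKB2 (0.0462) and RAPGEF6 for RELB (0.0611). Among the inhibitors they were UPP1 for NFKBIA (0.0274), SACM1L for NFKBIB (0.0419), SLC43A3 for NFKBIE (0.0357), KCNAB2 for NFKBIZ (0.0527) and ZC3H12D for TNFAIP3 (0.0550). Of the NF-kB genes themselves, NFKBIE and NFKBIZ were the closest pair (0.0489) and NFKBIE and NFKBIB the farthest (1.24). The likeness lies largely in the size of the difference between the groups, with a log2 fold change of 0.69 for VCP beside 0.68 for NFKB1.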

How the data were processed

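RNA from PMA-treated THP-1 cells was taken with Vezol reagent and made into libraries for DNBSEQ-T7, per the labels' protocols. Per the submitters' processing notes, fastp 0.23.0 and the build GRCh38 were used. Aligner, counter, annotation release and strand setting: not given in the sources used here. Raw counts, as whole numbers, were deposited for each gene beside its exon coordinates and length, from 37628972 to 42970216 counts per library.

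The whole table was fitted with edgeR 4.0.16 (R 4.3.3): TMM, filterByExpr (21905 genes left), robust quasi-likelihood test, two-sided, Benjamini-Hochberg adjusted p under 0.05. SE values come from the log2 fold change and the root of its F statistic. The leukocyte scale takes TMM factors from the 58 listed genes. Shares and ratios used exact permutation tests (scipy 1.17.1). Libraries of 1 group differed beyond counting noise (3.11 to 5.96 chi-square units per degree of freedom). The edgeR fit was checked on simulated counts, with far fewer changed genes than were called here and equal numbers in each direction. The NF-kB genes, lists, scalings and tests were chosen with earlier results of these data known. Besides the NF-kB genes, METTL1 and WDR4, all genes of the kinase, IkB-related and non-canonical lists and up to 4 genes with the smallest p of each other list could be named. Alternatives were 2 other normalizations and the leukocyte scale, 2 other filters, DESeq2 1.42.0, limma-voom (limma 3.58.1), a fit without robust estimation, a block for replicate numbers, each library left out, halved counts, a threshold of 0.01 and testing beyond a fold of 1.5, with a macrophage marker scale and GENCODE lengths added later.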

Additional observations from a re-analysis of the deposited data

How the results depend on the processing

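The 10 NF-kB genes stayed higher in KD with DESeq2 size factors, the DESeq2 test, limma-voom, both other filters and no robust estimation. They also did so with halved counts, an adjusted p of 0.01 and without each library in turn. With a library left out, the largest edgeR adjusted p of the 10 was 0.00239. From 6833 to 7983 genes of the whole table were called higher under these settings, beside 7934 in the main fit. The replicate block also kept all 10, with 7763 tested genes higher. Numbers shared by KD and NC did not pair the samples (correlations of same-numbered libraries -0.0138 to 0.0153). Against a fold of 1.5, 6 passed (18.0% of tested genes did), and 3939 tested genes were higher and 5716 lower. The leukocyte scale gave 0 of the 10 higher and 6 lower, and 762 tested genes higher with 18251 lower. Leaving out a library gave 0 to 3 higher there and 5 to 6 lower, the 3 coming without NC replicate 2. A macrophage marker scale, added after the data were seen, gave 4 higher (REL, NFKBIE, NFKBIZ and TNFAIP3, 0.19 to 0.21) and 5 lower. Those lower were NFKB1 at -0.41, NFKB2 at -0.72, RELA at -0.51, RELB at -0.58 and NFKBIB at -0.80. The median of all tested genes on that scale was -1.14, and the share of them called was not counted. The sign turned on the leukocyte scale for NFKB1 (-0.52), NFKB2 (-0.83), RELA (-0.62), RELB (-0.69), NFKBIA (-0.11) and NFKBIB (-0.91), and for NFKBID (-0.49), BCL3 (-0.66), NKIRAS1 (-1.10), NKIRAS2 (-0.91), IKBKB (-0.78), IKBKG (-0.40), IKBKE (-0.16), TBK1 (-0.41), TANK (-0.054), AZI2 (-0.97), TBKBP1 (-0.67), MAP3K14 (-0.73), TRAF3 (-0.39), BIRC2 (-0.68), LTBR (-0.025), CD40 (-0.32), TNFRSF11A (-1.09), TNFRSF12A (-1.0), TNIP2 (-0.13), OTULIN (-0.44), IL1R1 (-0.0084), ITGAM (-0.017) and CSF1R (-0.14). Only genes of the lists that could be named are given here, and other list genes turned too. TANK, LTBR, IL1R1 and ITGAM did not pass on the leukocyte scale (edgeR adjusted p = 0.263, 0.689, 0.877 and 0.770). The cause was not tested. The scale itself lowers every log2 fold change by about the leukocyte median of 1.20. METTL1 passed as lower with library sizes alone (-0.29, edgeR adjusted p = 0.00249) and on the leukocyte scale (-1.31, edgeR adjusted p = 4.15e-14). Without length scaling the RELA share was lower in KD, by -1.15 percentage points KD minus NC, in place of 0.624. WDR4 was lower on the scale of all genes (-0.61), and the leukocyte scale moved it further down (-1.81).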
